A study of Mus musculus with 2 samples.

Results

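Interleukins are secreted proteins through which leukocytes, epithelial cells and stromal cells signal to each other, and interleukin receptors are the membrane proteins that bind them. The genes described here are those on an Agilent mouse expression array whose symbol starts with Il and a digit, named through the RefSeq accession of each probe. There were 81 such genes, read by 97 probes, out of 20659 named genes on the array. The gene table used for naming holds 84 symbols of this form, and Il12b, Il11ra2 and Il4i1b were not analysed here. The name rule also takes in receptor antagonists, decoy receptors, binding proteins, the antisense transcript Il1bos and the enzyme gene Il4i1, an L-amino acid oxidase.

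RNA came from glomeruli, the capillary tufts in which the kidney filters blood, of 2 groups of male mice aged 8 months. The first group carried a deletion of Sirpa in podocytes, which wrap these capillaries (Sirpa-/-), and the second was wild type (WT). Mice of both groups had received 1 intraperitoneal injection of 0.5 ml of pristane, an oil that induces lupus-like autoimmunity, and were followed for 4 months to develop lupus nephritis, so neither group is an untreated control. Each group had 1 array, the sources used here give neither the animals behind it nor the Cre driver, and the design text speaks of podocytes where the labels speak of glomeruli.

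Interleukins act in families that share receptor chains. The IL-1 family signals through receptors that recruit the adaptor MyD88 and the IRAK kinases, and its ligands are held in check by decoy receptors, antagonists and binding proteins. The common gamma chain cytokines, the IL-6 and IL-12 group and the IL-10 family signal through JAK kinases and STAT factors, and the IL-17 family through the adaptor Act1. In lupus nephritis, IL-6, IL-17, IL-21, IL-23 and IL-18 are among the cytokines studied for their part in autoantibody formation and renal inflammation.

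Signals are given as processed intensities in arbitrary units, scaled so that both arrays have the same 75th percentile (1133), and a difference is always the log2 signal with the Sirpa-/- label minus that with the WT label. Signals of different probes are not comparable as amounts of RNA. With 1 array per group no difference could be tested, and each one is between these 2 arrays only. Sirpa, the deleted gene, had a signal of 17691 on the array labelled Sirpa-/-, against 11378 on the WT array, 1.55-fold higher, which goes against the label. Where its only probe lies in the gene, inside or outside the deletion, is not known, and Sirpa of other glomerular cells would remain, so this does not check the deletion. Every direction below is therefore that of the array labelled Sirpa-/-. Well above background were 86.7% of 39429 gene probes on the array labelled Sirpa-/- and 85.3% on the WT array, with 0 saturated spots. Markers of other cells of blood and kidney differed as well. All 4 erythroid markers were at least 2-fold higher (summed signals 54227 under the Sirpa-/- label against 17692 under WT). The 4 proximal tubule markers all lay below 0 (median -0.38). Of 6 tubule markers from the loop onwards, 2 were at least 2-fold higher, namely Slc12a3 (2.53) and Calb1 (1.39). Umod gave 0.97, Aqp2 0.15, Slc12a1 -0.15 and Atp6v1b1 -0.19. These 6 had summed signals of 3771 under the Sirpa-/- label against 2157 under WT. Umod was the largest part of both sums, at 2969 under the Sirpa-/- label against 1519 under WT. The part of these cells in the differences below was not tested. A summed signal, here and below, is carried mainly by the brightest markers of its list. The podocyte marker nephrin (Nphs1) was bright on both arrays, at 53000.3 under the Sirpa-/- label against 34246 under WT.

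The technical spread depended on the signal. Among 360 probes that were spotted 10 times on each array, the log2 difference of a single pair of spots had a median SD of 0.10 at signals of 1000 or more, 0.12 between 100 and 1000, 0.35 between 30 and 100, and 0.55 below 30. These values hold the spread between spots of 1 RNA sample and none of the spread between mice. Single probes could spread more than these medians. The highest decile of SDs began at 0.21 between 100 and 1000, 0.78 between 30 and 100, and 1.18 below 30. Below, "technical SD" means the median value for the gene's own range of signal, so a multiple of it is not a bound on the spread of a single probe.

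Of the 81 genes, 72 were well above background on both arrays. Past 2-fold were Il33, Il2rb and Il1r2, with higher signals under the Sirpa-/- label, and Il22, with a lower one. With normexp background correction and quantile normalization, none of these 4 passed 2-fold. The 3 higher genes made up 4.17% of those measured, where 1.56% of 18239 named genes measured on both arrays were called this way. The 1 lower gene made up 1.39%, against 1.67% of all named genes. The median difference of the 72 genes was 0.04 and that of all named genes was 0.00, and 37 of the 72 lay within 0.25 of 0. At a lower limit of 1.5-fold, 7 members were higher (9.72%, against 4.34% of all named genes) and 5 were lower (6.94%, against 5.27%). The plot of signals by gene shows how closely the 2 arrays match for most of the families.

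**Figure D1:**
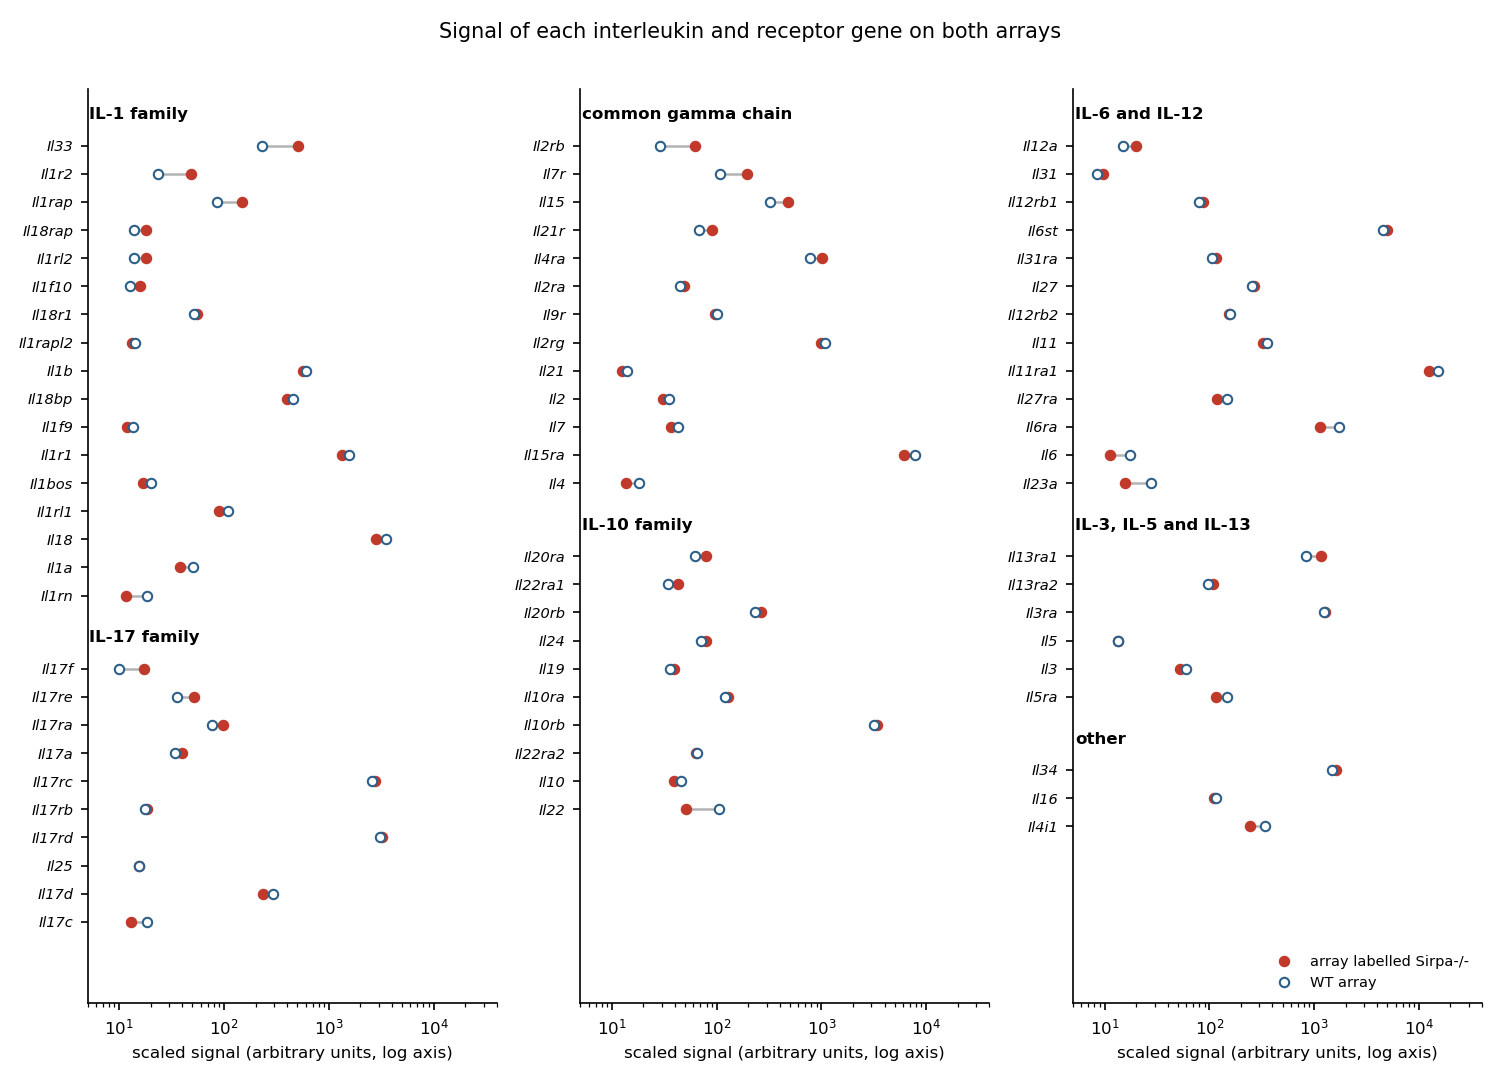
Scaled signal of the 72 measured genes on the array labelled Sirpa-/- (filled) and the WT array (open), by family, on a log axis; each point is 1 array and genes are ordered by their difference. The points lie almost on each other for most genes and stand clearly apart for Il33, Il2rb, Il1r2 and Il22.

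Sequences around the annotated transcription starts of the 2-fold members are shown so that the starts of the genes behind the 2-fold counts can be compared, apart from Il2rb, which is named only. They are RefSeq sequences of the build GRCm38.p6, written 5′ to 3′ on the gene's own strand, from 250 bases before to 50 after the start. Capitals mark matches, on either strand, to a TATA box (TATAAA) or a STAT site (TTCNNNGAA). These do not overlap in the windows shown.
Il33, upstream start, chr19:29924863-29925162, plus strand: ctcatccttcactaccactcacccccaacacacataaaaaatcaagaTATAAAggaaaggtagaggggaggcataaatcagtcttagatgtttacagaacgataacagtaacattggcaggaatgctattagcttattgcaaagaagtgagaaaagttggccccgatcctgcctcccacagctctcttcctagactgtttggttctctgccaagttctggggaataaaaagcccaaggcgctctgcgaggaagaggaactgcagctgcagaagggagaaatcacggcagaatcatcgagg
Il33, downstream start, chr19:29945540-29945839, plus strand: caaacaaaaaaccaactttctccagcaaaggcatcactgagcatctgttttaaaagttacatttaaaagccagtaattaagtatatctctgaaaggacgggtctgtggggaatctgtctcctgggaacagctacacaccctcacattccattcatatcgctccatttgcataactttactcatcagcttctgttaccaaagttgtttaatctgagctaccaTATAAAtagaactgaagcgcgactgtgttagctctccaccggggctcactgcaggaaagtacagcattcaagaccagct
Il1r2, chr1:40085843-40086142, plus strand: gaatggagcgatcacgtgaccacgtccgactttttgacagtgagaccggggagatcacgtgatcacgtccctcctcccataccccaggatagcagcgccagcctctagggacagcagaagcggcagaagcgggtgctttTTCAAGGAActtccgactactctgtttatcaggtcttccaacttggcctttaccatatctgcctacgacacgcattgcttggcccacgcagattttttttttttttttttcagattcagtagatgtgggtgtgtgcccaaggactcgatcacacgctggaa
Il22, chr10:118204714-118205013, plus strand: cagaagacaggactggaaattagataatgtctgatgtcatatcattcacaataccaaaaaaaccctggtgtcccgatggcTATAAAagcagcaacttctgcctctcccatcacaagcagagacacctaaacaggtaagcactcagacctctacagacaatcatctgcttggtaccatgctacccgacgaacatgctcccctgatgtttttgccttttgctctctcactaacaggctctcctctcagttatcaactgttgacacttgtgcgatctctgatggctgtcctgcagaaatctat
The downstream Il33 start has TATAAA at position -29 relative to the start, the usual place of a TATA box, and the upstream start has it at position -203. The Il1r2 window holds 1 STAT match, at position -111, and the Il22 window 1 TATA match, at position -170. None of the 4 windows holds an AP-1 site (TGANTCA) or the NF-kB letters searched (GGG, any 2 bases, then TTTCC). Of 32851 windows of the same length, 13.6% hold the TATA letters, 8.3% the STAT letters, 7.81% the AP-1 letters and 1.63% the NF-kB letters. A match is not a bound site, and a window without one says nothing of the factor.

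Il33 encodes an alarmin of the IL-1 family that barrier and stromal cells keep in the nucleus and release on damage. Its probe gave 503 ± 50.4 on the array labelled Sirpa-/- and 232 ± 23.2 on the WT array, where ± is the scanner software's error of the spot. The array labelled Sirpa-/- was thus 2.17-fold higher, a difference of 1.12 or 9.67 times the technical SD. No other member was both at least 2-fold apart and brighter than the median gene probe (105). Markers of 3 glomerular cell types that stood beside it had list medians of 0.16 for podocytes, -0.08 for endothelium and 0.01 for mesangium and smooth muscle. Each list held 1 marker at least 1.5-fold higher, namely Nphs1 (0.63), Plvap (0.64) and the dim Myh11 (1.13), and 0 at least 1.5-fold lower. Below 0 lay 1 of 6 podocyte, 4 of 6 endothelial and 2 of 5 mesangial and smooth muscle markers, with Itga8 the lowest (-0.42). On the array labelled Sirpa-/- their summed signals were 373237 for podocytes, 218997 for endothelium and 65448 for mesangium, and on the WT array 331920.4, 236032 and 79874 for the same lists. The part of these markers in the Il33 difference was not tested. In RNA from whole glomeruli, more or fewer cells of a type and more or less RNA per cell cannot be told apart.

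The parts of the IL-33 receptor differed in direction. Il1rl1 (ST2), the specific chain, had 89.1 on the array labelled Sirpa-/- and 110 on the WT array on its brighter probe, a difference of -0.30, and 0.19 on a dimmer probe with 10.2 under the Sirpa-/- label against 8.97 under WT. Both lay within 1 technical SD of 0. Il1rap, the accessory chain that IL-1, IL-33 and IL-36 receptors share, had 148 under the Sirpa-/- label against 85.7 under WT, 1.73-fold higher on the array labelled Sirpa-/- (0.79). A second Il1rap probe, matched to another transcript accession, had 75.8 under the Sirpa-/- label against 67.8 under WT, a difference of 0.16. The higher value of Il1rap therefore rests on 1 of its 2 probes.

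Il1r2, the decoy receptor that binds IL-1 without signalling, had 47.9 ± 4.97 on the array labelled Sirpa-/- and 23.7 ± 2.7 on the WT array, 2.03-fold higher (1.02, 2.93 times the technical SD). Il1r1, the signalling receptor for the same ligands, had 1344 under the Sirpa-/- label against 1549.8 under WT and lay slightly the other way (-0.21). In the annotated gene order of chromosome 1, Il1r2 is followed by Il1r1, Il1rl2, Il1rl1, Il18r1 and Il18rap. The others of this cluster lay between -0.30 and 0.38, so the 2-fold difference of Il1r2 was not shared by its neighbours. Il1r2 is known from neutrophils and monocytes. Of 6 neutrophil markers, 3 lay above 0 and 3 below, with a median of 0.13. Mmp8 was 2.1-fold higher under the Sirpa-/- label and Ltf was lower (-0.91). The summed signals were 32042 under the Sirpa-/- label and 31939 under WT. Csf3r was the largest part of both sums, at 20583 under the Sirpa-/- label against 23500 under WT. The part of these markers in the Il1r2 difference was not tested.

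Apart from Il33 and Il1r2, the ligands and inhibitors of the IL-1 family differed by less than 1.5-fold or were dim. Il1b, read by 9 unflagged spots on each array, ranged over single spots from 499 to 631 with a median of 567 on the array labelled Sirpa-/-, and from 544 to 655 with a median of 595 on the WT array. The spots overlapped, and the difference was -0.09. Il1a (37.9 under the Sirpa-/- label against 51.0 under WT, -0.43) and the receptor antagonist Il1rn (11.7 under the Sirpa-/- label against 18.2 under WT, -0.65) were lower on the array labelled Sirpa-/-, by 1.23 and 1.17 technical SD. Il18, which the inflammasome matures, gave 2813 under the Sirpa-/- label against 3531 under WT, 1.26-fold lower (-0.33, 3.16 technical SD), while its binding protein Il18bp gave 401 under the Sirpa-/- label against 451 under WT (-0.17). The IL-18 receptor chains Il18r1 (0.10 on its brighter probe) and Il18rap (0.38) and the IL-36 receptor Il1rl2 (0.37) stayed within 1 technical SD. A second Il18r1 probe was well above background on the WT array alone, at 6.14 under the Sirpa-/- label against 10.8 under WT, at least 1.71-fold lower. The 2 probes thus lay on opposite sides of 0, but the second was near the smallest detectable signal, so neither gives a clear direction. Of the IL-36 group, Il1f9 (-0.19) and Il1f10 (0.30) were measured at signals under 16, and Il1f5, Il1f6 and Il1f8 were not well above background on either array. The neuronal receptor-like gene Il1rapl2 gave -0.08 and the antisense transcript Il1bos -0.27.

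**Figure D2:**
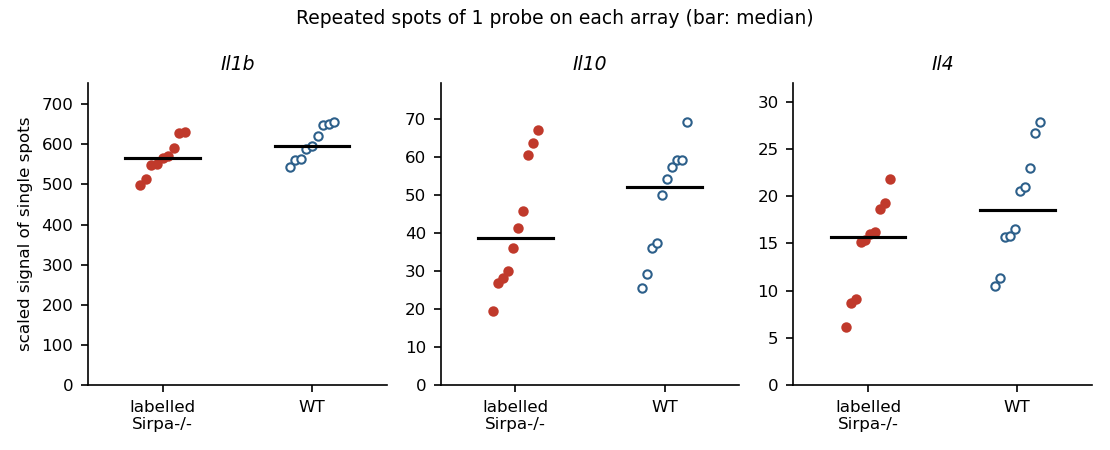
Scaled signals of the single spots of 3 probes, on the array labelled Sirpa-/- (filled, left) and the WT array (open, right), with the median as a bar. The spots of both arrays overlap for Il1b, Il10 and Il4, and at the low signals of Il10 and Il4 the spots of 1 array span more than 2-fold.

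The common gamma chain cytokines govern lymphocyte survival and help. Of their 8 receptor chains, 5 lay above 0. Il2rb (CD122), the signalling chain for IL-2 and IL-15 on T and NK cells, had 61.6 ± 6.36 on the array labelled Sirpa-/- and 28.6 ± 3.42 on the WT array, 2.15-fold higher (1.11, 3.18 technical SD). Il7r (CD127), which keeps naive and memory T cells alive, had 193 ± 19.4 under the Sirpa-/- label against 108 ± 10.9 under WT, 1.79-fold higher (0.84, 7.25 technical SD). Il21r, the receptor for the follicular helper cytokine IL-21, gave 90.7 under the Sirpa-/- label against 68.0 under WT (0.42), and Il4ra, shared by IL-4 and IL-13, gave 1014 under the Sirpa-/- label against 778 under WT (0.38) with 0.17 on its other probe. Il2ra (0.16), Il9r (-0.05 on its brighter probe) and the common gamma chain Il2rg itself (-0.14) were close to 0. The dimmer Il9r probe gave -0.41, at 34.1 under the Sirpa-/- label against 45.2 under WT. Il2rg gave 992 under the Sirpa-/- label against 1089.9 under WT, so the shared chain lay on the other side of 0 from Il2rb and Il7r.

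Beside these receptors, the B cell markers were all higher and most measured T cell markers lay above 0. The innate lymphoid and NK markers were split. Of 8 T cell markers, 7 were measured, 0 were 2-fold apart, 3 were higher by 1.5-fold or more under the Sirpa-/- label, and their median was 0.43, with summed signals of 2073 under the Sirpa-/- label and 1778 under WT. Of the 7, 6 lay above 0, namely Cd2 (0.89), Cd3g (0.85), Cd3d (0.69), Cd8a (0.43), Cd3e (0.30) and Cd4 (0.09). Cd5 gave -0.11, and Trat1 was well above background on the WT array alone. All 8 B cell markers were higher, 4 of them at least 2-fold, with a median of 1.33 and summed signals of 3994 under the Sirpa-/- label and 1047 under WT. Of the 4 innate lymphoid and NK markers, 2 lay above 0 and 2 below, with Klrb1c at 0.31, Rora at 0.17, Gata3 at -0.16 and Ncr1 at -0.24. Every marker of these 3 lists was well above background on at least 1 array. The part of these cells in the differences of Il2rb and Il7r was not tested.

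Il15, a survival factor for NK and memory T cells made by epithelial and myeloid cells, had 481 under the Sirpa-/- label against 320.3 under WT, 1.5-fold higher on the array labelled Sirpa-/- (0.59, 5.06 technical SD). Il15ra, which presents IL-15 to neighbouring cells, had 6116 under the Sirpa-/- label against 7770 under WT on its brighter probe (-0.35), and 115 under the Sirpa-/- label against 99.9 under WT on the other (0.21), so its probes disagree in direction. The other measured ligands had signals under 43 and lower values on the array labelled Sirpa-/-, with Il7 at -0.22, Il2 at -0.21 and Il21 at -0.17. Il4, read by 10 spots, ranged from 6.11 to 21.8 over the spots of the array labelled Sirpa-/- and from 10.5 to 27.8 over those of the WT array, and these overlapped (-0.40). Il9 was not well above background on either array.

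In the IL-6 and IL-12 group, 6 of 13 measured genes lay above 0 and the median was -0.06. Il6ra, the specific IL-6 receptor chain, had 1138 ± 114 on the array labelled Sirpa-/- and 1708 ± 171 on the WT array, 1.5-fold lower (-0.59, 5.64 technical SD). Il6 itself had 11.4 under the Sirpa-/- label against 17.4 under WT (-0.61), but at this dim signal the difference was 1.11 technical SD. Il6st (gp130), the signalling chain that IL-6, IL-11 and IL-27 use, had 4960.5 under the Sirpa-/- label against 4583 under WT and differed by 0.11. The chains of the IL-6 receptor thus lay on opposite sides of 0. Il11 (-0.13), whose receptor gene Il11ra1 gave 12389 under the Sirpa-/- label against 15171 under WT (-0.29), differed little, and Il11ra1 has a near-identical copy that its probe may also read. Il27ra had 120 under the Sirpa-/- label against 149 under WT (-0.31). Its ligand Il27 (0.08), Il31, an itch cytokine (0.19), and Il31ra (0.11 on its brighter probe) were nearer to 0. The dimmer Il31ra probe gave 0.35, at 13.1 under the Sirpa-/- label against 10.3 under WT. Of 7 measured markers of macrophages and monocytes, cells that carry Il6ra, 2 were at least 1.5-fold lower and the median was -0.10. The summed signals were 12790.2 under the Sirpa-/- label and 11861 under WT. Mrc1 was the largest part of both sums, at 9019 under the Sirpa-/- label against 7050 under WT. Of the 7 markers, 3 lay above 0 and 4 below. The part of these cells in the Il6ra difference was not tested.

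IL-12 and IL-23 share a receptor chain and a subunit. Il23a, the p19 subunit of IL-23, had 15.8 under the Sirpa-/- label against 27.6 under WT (-0.81, 1.47 technical SD), and Il12a, the p35 subunit of IL-12, had 20.1 under the Sirpa-/- label against 14.8 under WT (0.44). Il12rb1, the shared receptor chain, gave 0.14 and 0.31 on its 2 probes, and Il12rb2 gave -0.06. Il23r was well above background on the array labelled Sirpa-/- alone, at 15.1 ± 1.96 under the Sirpa-/- label against 1.67 ± 1.39 under WT. It was at least 2.3-fold higher, since the lowest signal well above background on the WT array was 6.58. Among 441 named genes above background on the array labelled Sirpa-/- alone, 22.9% passed 2-fold by such a bound. On the WT array alone, Il1rapl1 and Il17b were above background, at least 1.71-fold and at least 1.24-fold lower on the array labelled Sirpa-/-, so neither was among the 23.4% of 274 such genes that passed 2-fold.

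In the IL-10 family the ligand Il22 stood apart. IL-22 is made by T cells and innate lymphoid cells and acts on epithelium. Its probe had 50.8 ± 5.26 on the array labelled Sirpa-/- and 105 ± 10.6 on the WT array, 2.07-fold lower (-1.05, 3.02 technical SD). Some mouse strains carry a near-identical copy of Il22, which its probe may also read. Of the 4 innate lymphoid and NK markers the median was 0.01 and none was 1.5-fold apart, and the part of these cells was not tested. Its receptor chains Il22ra1 (42.9 under the Sirpa-/- label against 34.3 under WT, 0.32) and Il10rb (3398 under the Sirpa-/- label against 3175 under WT, 0.10) lay slightly above 0, and its soluble binding protein Il22ra2 gave -0.04. A second Il22ra1 probe was above background on the WT array alone, at 3.54 under the Sirpa-/- label against 9.92 under WT, at least 1.56-fold lower. The probes of this receptor thus lay on opposite sides of 0. The brighter was within 1 technical SD and the second was near the smallest detectable signal, so neither gives a clear direction. Il10, read by 10 spots, had a median of 38.7 with single spots from 19.4 to 67.1 on the array labelled Sirpa-/-, and a median of 52.0 with spots from 25.4 to 69.0 on the WT array. These overlapped, and the difference was -0.23. All 5 measured receptor chains of the family lay above 0, between 0.10 and 0.37 with Il20ra the highest, and Il19 (0.11) and Il24 (0.15) lay there as well. Il20 was not well above background on either array.

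The IL-17 family, linked to neutrophil recruitment, was dim in most of its ligands. Il17f had 17.2 under the Sirpa-/- label against 9.96 under WT (0.79), 1.72-fold higher on the array labelled Sirpa-/- but only 1.43 technical SD, and its chromosomal neighbour Il17a had 39.4 under the Sirpa-/- label against 34.0 under WT (0.21). Il17c (-0.53), Il25 (-0.01) and Il17d (-0.34, with -0.13 on its other probe) lay at or below 0. Of the receptors, Il17re, which binds IL-17C, gave 0.55 at 51.9 under the Sirpa-/- label against 35.5 under WT, and Il17ra, the chain that most of the family uses, gave 0.34. Il17rc had 2752 under the Sirpa-/- label against 2561 under WT (0.10) and 0.17 on its other probe, Il17rd gave 0.06 and Il17rb 0.06. All 5 receptors lay above 0, while none reached 1.5-fold.

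The remaining receptors belong to type 2 and haematopoietic cytokines. Il13ra1, which pairs with Il4ra, had 1164 under the Sirpa-/- label against 845 under WT, 1.38-fold higher on the array labelled Sirpa-/- (0.46, 4.0 technical SD), and the decoy Il13ra2 gave 0.16. Il5ra had 115 under the Sirpa-/- label against 149 under WT, 1.29-fold lower (-0.37, 3.17 technical SD), and Il3ra had 1272 under the Sirpa-/- label against 1254 under WT (0.02). Il3 (-0.19) and Il5 (0.00), with signals under 61, stayed within 1 technical SD, and Il13 was not well above background on either array. Outside the families, Il34, a ligand of the macrophage receptor CSF1R, had 1617 under the Sirpa-/- label against 1487 under WT (0.12), Il16, a ligand of CD4, gave -0.06, and Il4i1 had 245 under the Sirpa-/- label against 341 under WT, 1.39-fold lower (-0.48, 4.12 technical SD).

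**Figure D3:**
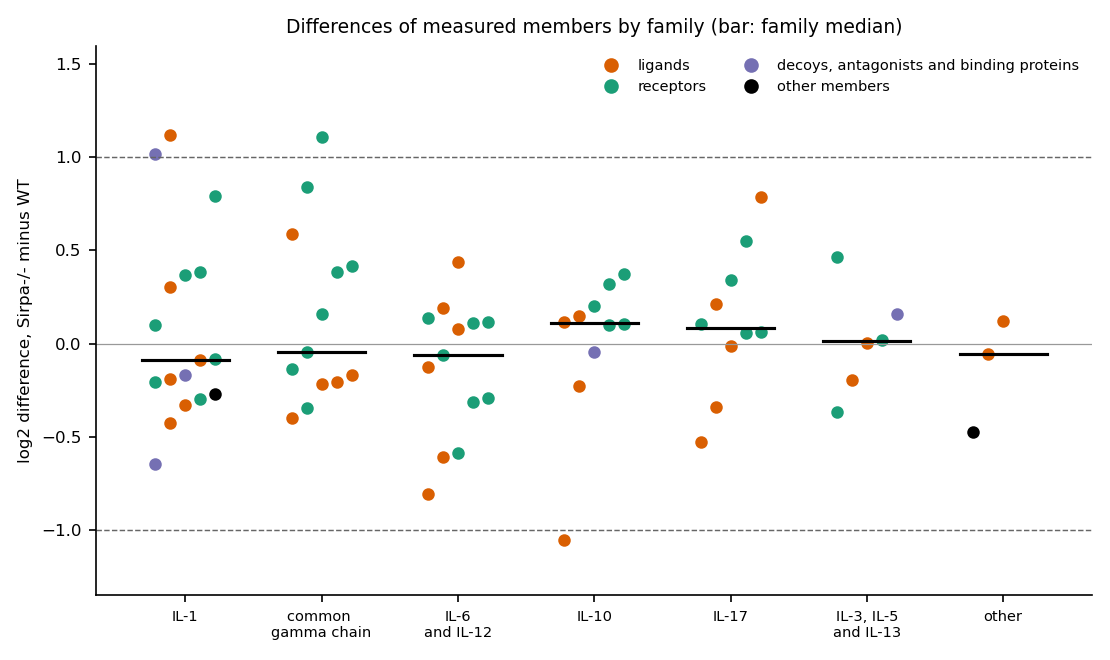
Log2 difference (array labelled Sirpa-/- minus WT array) of the 72 measured genes by family, coloured by role, with family medians as bars and dashed lines at 2-fold. Each family median lies between -0.09 and 0.11, and the 4 genes past the dashed lines fall in 3 families.

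By role, 24 of 35 measured receptor chains lay above 0, with a median of 0.10, and 12 of 30 ligands did, with a median of -0.11. Of all named genes, 50.2% lay above 0. Members brighter than the median gene probe numbered 31, of which 4 (Il33, Il7r, Il1rap and Il15) were higher by 1.5-fold or more under the Sirpa-/- label, or 12.9%, against 2.77% of 12506 named genes in that range. In the same range Il6ra was the 1 member at least 1.5-fold lower, or 3.23%, against 3.6% of named genes. Among the 41 dimmer members, 7.32% were at least 2-fold apart in either direction, and 6.09% of dimmer named genes were. These shares describe 2 arrays and carry no test.

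**Figure D4:**
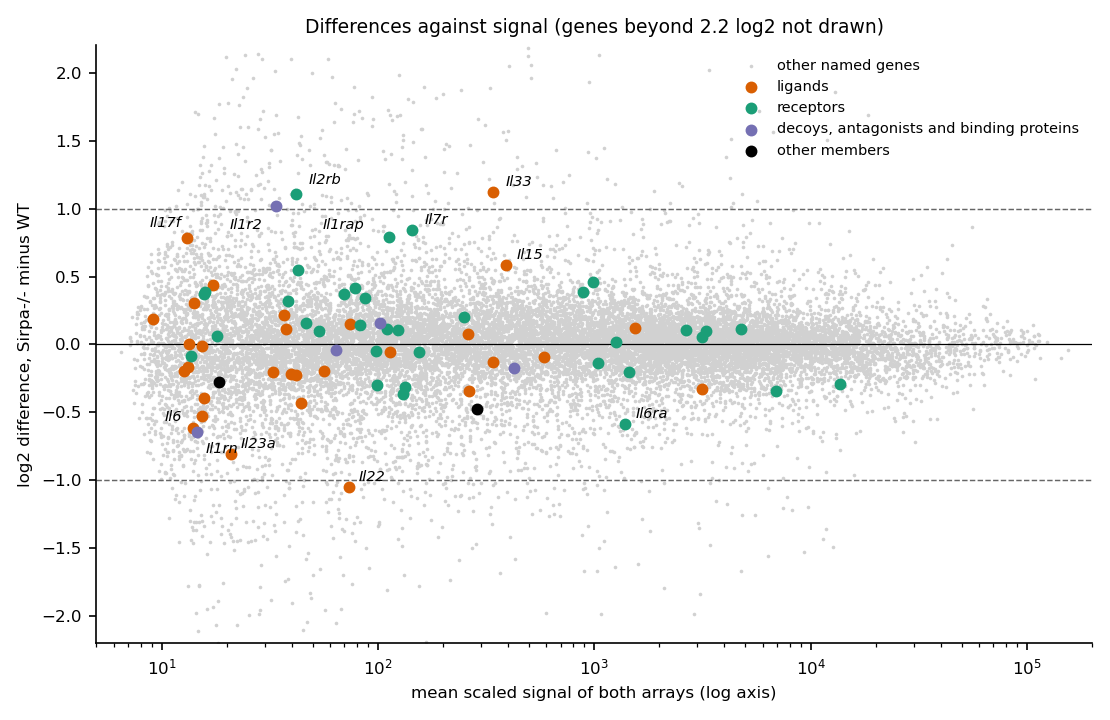
Log2 difference (array labelled Sirpa-/- minus WT array) against the mean scaled signal on a log axis, for all named genes (grey) and the members by role; members at least 1.5-fold apart are named and dashed lines mark 2-fold. The grey cloud widens towards dim signals, where Il2rb, Il1r2 and Il22 lie, while Il33 lies outside the bulk of genes of its own brightness.

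Of 9 genes with 2 measured probes, 7 had the same sign on both, the median gap between probes was 0.24, and 2 had a gap over 0.5, Il1rap (0.63) and Il15ra (0.55). Il33, Il2rb, Il1r2 and Il22 each had 1 probe, so no second probe bears on their differences. Each of these probes was also read by 1 spot per array, so its own spread is not known. Il2rb, Il1r2 and Il22 lie in the range of signal where the highest decile of SDs began at 0.78. In the same range, the single spots of Il10 had a log2 SD of 0.60 on the array labelled Sirpa-/- and 0.49 on the WT array.

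Genes that act with the interleukins but do not carry the name were taken from lists of 52 genes, all measured. Of these, 1 was at least 2-fold higher and 0 were at least 2-fold lower, where 1.56% and 1.67% of all named genes were, so the lists stood near that background. Their median was 0.09. The 1 gene was Socs3, the feedback inhibitor of gp130 signalling, with 8136 on the array labelled Sirpa-/- and 3907 on the WT array, 2.08-fold higher (1.06). Of the other feedback inhibitors, Cish (0.31), Socs2 (0.35) and Socs6 (0.29) were slightly higher and Socs1 gave -0.04. Cntfr, a gp130 family receptor for ciliary neurotrophic factor, had 793 under the Sirpa-/- label against 422 under WT, 1.88-fold higher, while Lif, a ligand of that family, had 38.3 under the Sirpa-/- label against 58.6 under WT (-0.61). None of the 11 JAK and STAT genes was 1.5-fold apart, with Stat3 at -0.19, and the adaptor Myd88 gave 0.14. Sigirr, a negative regulator of IL-1 family receptors, had 661 under the Sirpa-/- label against 896 under WT (-0.44), and Casp1, the protease that matures IL-1 beta and IL-18, gave -0.22. All 4 genes of the IL-17 signalling list lay above 0, with Nfkbiz at 101 under the Sirpa-/- label against 62.2 under WT (0.70) and Act1 (Traf3ip2) at 572 under the Sirpa-/- label against 393 under WT (0.54). In the TSLP axis, the receptor Crlf2 had 15646 under the Sirpa-/- label against 18847 under WT (-0.27) and its ligand Tslp gave -0.36.

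Over 79 promoter windows of 64 member genes, searched in the same way, 17.7% held the TATA letters and 13.9% the STAT letters. Of all 32851 windows, 13.6% and 8.3% did. The AP-1 letters were in 17.7% and the NF-kB letters in 10.1% of member windows, against 7.81% and 1.63% of all windows. These shares were not tested. The 8 windows with NF-kB letters belonged to Il1rn (2 starts sharing GGGTTTTTCC), Il6 (GGGATTTTCC), Il23r and Il9 (each GGGTTTTTCC), Il16 (GGGAATTTCC), Il17rc (GGAAACACCC, the opposite strand) and Il4ra (GGAAAGCCCC, the opposite strand). The measured genes among them had differences of -0.65 for Il1rn, -0.61 for Il6, -0.06 for Il16, 0.10 for Il17rc and 0.38 for Il4ra. Genes with these letters were therefore found on both sides of 0.

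The 12 members at least 1.5-fold apart were followed through other ways of processing the same arrays. With quantile normalization, loess, median centring or the authors' deposited table, Il33, Il2rb, Il1r2 and Il22 remained past 2-fold. With normexp background correction, run with an offset and quantile normalization, Il33 gave 0.91, Il2rb 0.46, Il1r2 0.29 and Il22 -0.61, and none of the 4 reached 2-fold.

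**Figure D5:**
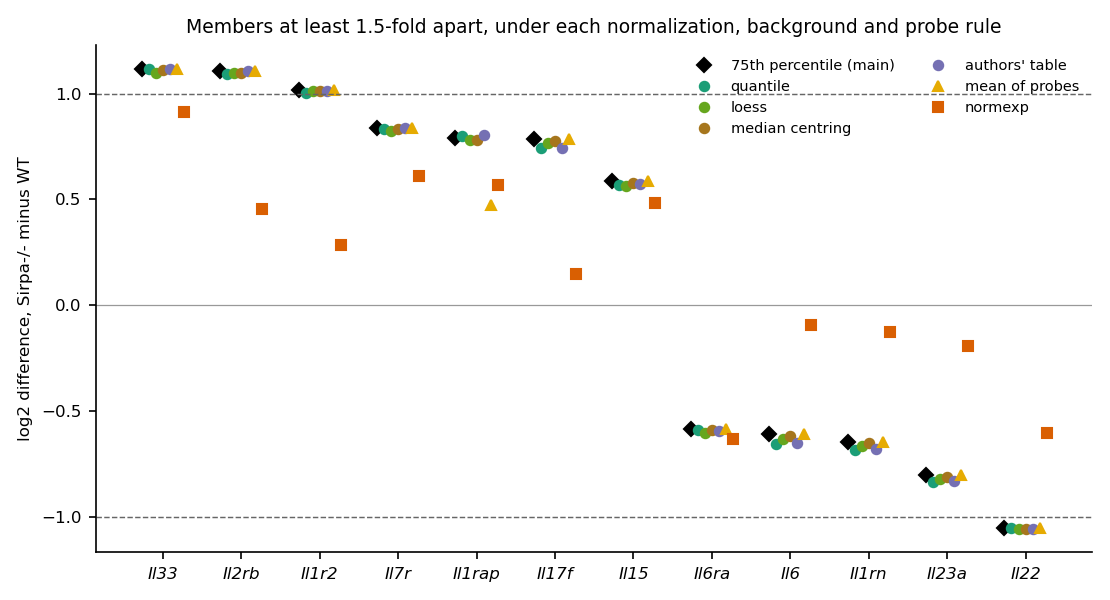
Log2 difference (array labelled Sirpa-/- minus WT array) of the 12 members at least 1.5-fold apart, each symbol being 1 way of normalizing, correcting background or combining probes; dashed lines mark 2-fold. The normalizations nearly coincide, normexp brings the dim genes Il17f, Il6, Il1rn and Il23a close to 0, and Il33, Il7r, Il15 and Il6ra keep most of their difference.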

How the data were processed

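Total RNA of glomeruli was labelled with Cy3 (0.25 µg) and hybridised to 1 one-colour Agilent array per group. The deposited intensity of each spot is, per the file headers, the processed signal of Agilent Feature Extraction 11.0.1.1 (9.1 per the submitters' processing notes), with no normalization between arrays. Quality flags in the deposited files were used as given. The authors' deposited table of log2 values, whose making the sources used here do not describe, served as an alternative. Its columns matched their own arrays best (r = 0.994 for both across probes).

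Spots flagged as outliers were left out, log2 spots of a probe were averaged and each array's 75th percentile was subtracted. A probe counted as measured when both arrays had over 50% of its spots flagged well above background. Of 39429 gene probes, 27234 were named by unversioned RefSeq accession (GRCm38.p6 gene table, array designed on an older build, so coordinates come only from the promoter sequences). A gene is its brightest measured probe. The genes named in the text are the 2-fold members, those past 2-fold by their bound, the 12 highest, 12 lowest and 12 brightest members, and a fixed set of members. Others were added to account for every member. Members and lists were chosen with earlier results of these data known. A bound is the bright signal over the dim one, or over the smallest detectable signal of the dim array where that is higher. The alternatives used limma 3.58.1 in R 4.3.3 (normexp with an offset of 50 on median spot and background intensity, then quantile), other steps pandas 2.3.3 in Python 3.11.15. The steps were tested on simulated data. No test between groups was possible with 1 array each, and precision is limited by that number.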

Additional observations from a re-analysis of the deposited data

How the results depend on the processing

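Past 2-fold, 3 members were higher under the Sirpa-/- label and 1 was lower. Both counts were the same with quantile normalization, median centring, loess, the authors' table and the mean of a gene's probes. With normexp, which changed the background, the offset and the normalization together, they were 0 and 0, and the cause was not tested. With the stricter filter, which tested 31 members, they were 1 (Il33) and 0, and without a filter they were 4 and 3, since genes not above background entered (Il23r, Il13 and Il1rapl1). At 1.5-fold they were 7 and 5, and at 3-fold 0 and 0. The median difference of the members lay between -0.01 with normexp and 0.04. Over all named genes, normexp gave 96 higher and 84 lower against 285 and 304, and no filter gave 670 and 613. Of 54 named members, 8 moved by more than the technical SD with normexp and 2 with the mean of probes. Under the other alternatives, 0 did, and those that the stricter filter left out have no value there. Il17a and Il18r1 changed sign with normexp, to -0.05 and -0.01. No paired analysis was possible because each group has 1 array. Leaving out a replicate was not possible for the same reason. Signals below 100 limit what can be read, and 41 of the 72 measured members were dimmer than the median probe.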
